A study of Homo sapiens with 2 samples.

Results

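The receptors for insulin and for the insulin-like growth factors (IGFs), the ligand IGF1 and the IGF binding proteins were followed in human pancreatic cultures derived from embryonic stem cells. The 10 genes were INSR, IGF1R, IGF1 and IGFBP1 to IGFBP7, chosen by name from the 55797 genes in the expression tables. The insulin gene itself is not among them and is given for context. RNA-seq was performed on 1 live and 1 processed library. Both came from the established embryonic stem cell line H1, which was grown on matrigel in mTeSR medium and differentiated stepwise to Stage 6, a mixed culture in which a part of the cells expresses insulin. No gene was altered and no drug was compared. Live cells were lysed without fixation and their RNA was isolated with RNeasy. Processed cells were fixed in 4% paraformaldehyde, permeabilized, stained with antibody and passed through the sorter with every cell kept, and their RNA was isolated with a modified RecoverAll kit. This is the MARIS procedure, and the comparison asks whether it changes the measured level of each mRNA. Levels are in FPKM, the number of fragments corrected for transcript length and library size, so that genes can be compared with each other. Each FPKM is given with the lower and upper bound deposited beside it. With 1 library per condition no difference has a replicate check, no p-value is given, and the bounds describe each library alone.

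The insulin and IGF system joins a few ligands to a pair of related receptor tyrosine kinases. Insulin acts through INSR and the IGFs mainly through IGF1R, and both receptors signal through IRS adaptors to PI3K, AKT and the MAPK cascade. The IGF binding proteins are secreted carriers that hold IGFs outside the cell and thereby limit or prolong their access to IGF1R. IGFBP7 is a more distant relative that binds IGFs weakly. In the developing pancreas, IGF signals act on the growth of epithelium and mesenchyme, and IGF2 is the main fetal ligand.

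IGFBP2 was by far the most abundant of the 10 mRNAs, and binding proteins filled the upper end of the range. IGFBP2, a carrier that prefers IGF2, was measured at 572.2 FPKM (566.7 to 577.6) in live cells and 545.8 FPKM (540.3 to 551.4) in processed cells. Only 124 genes were higher in live cells and 126 in processed cells. IGFBP5, a carrier that also binds extracellular matrix, followed at 102.5 FPKM (101.7 to 103.3) and 91.5 FPKM (90.6 to 92.5). IGFBP3, the main carrier of IGFs in serum, had 32.9 FPKM (31.8 to 34.0) and 29.2 FPKM (28.2 to 30.1). IGFBP7 was close to it, at 28.9 FPKM (27.9 to 30.0) and 26.1 FPKM (25.2 to 27.1). These 4 binding proteins held the same 4 places in both libraries, and no bounds of neighbours in that order overlapped within a library.

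**Figure D1:**
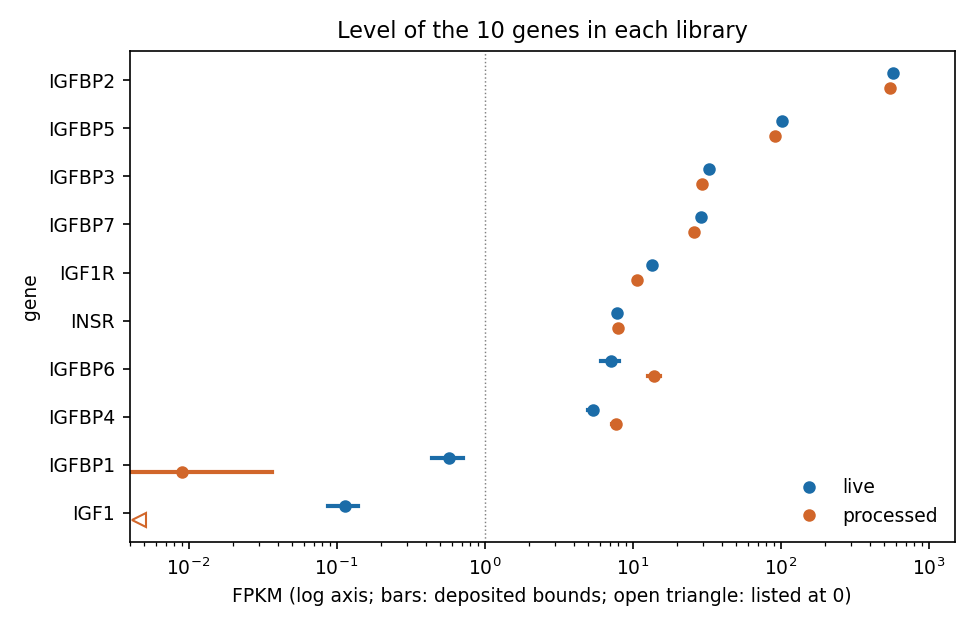
FPKM of the 10 genes (rows, ordered by the live level) on a log axis, with live cells in blue and processed cells in orange; bars are the deposited bounds, the dotted line marks 1 FPKM and the open triangle marks IGF1, which was listed at 0 in processed cells. IGFBP2 lay highest in both libraries, IGFBP6 and IGFBP4 were further right in processed cells, and IGFBP1 and IGF1 lay below 1 FPKM.

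The receptors and the remaining binding proteins formed a middle group between 5.36 and 14.0 FPKM. IGF1R, the receptor for IGF1 and IGF2, had 13.5 FPKM (12.9 to 14.2) in live cells and 10.7 FPKM (10.5 to 10.9) in processed cells. INSR, the insulin receptor, had 7.87 FPKM (7.68 to 8.06) and 7.91 FPKM (7.71 to 8.10). IGFBP6, a carrier with a strong preference for IGF2, had 7.11 FPKM (6.15 to 8.08) and 14.0 FPKM (12.7 to 15.3). IGFBP4, which blocks IGF action until it is cut by the protease PAPPA, had 5.36 FPKM (5.02 to 5.70) and 7.69 FPKM (7.29 to 8.10). In live cells the order was IGF1R, INSR, IGFBP6 and IGFBP4, and the bounds of INSR and IGFBP6 overlapped. In processed cells it was IGFBP6, IGF1R, INSR and IGFBP4, and the bounds of INSR and IGFBP4 overlapped. Of the 10 genes, 7 had the same rank in both libraries.

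IGFBP1 and IGF1 were the lowest of the set. IGFBP1, a carrier that liver secretes and insulin represses, had 0.575 FPKM (0.439 to 0.710) in live cells and 0.00899 FPKM (0 to 0.0369) in processed cells. IGF1, the growth hormone dependent ligand, had 0.114 FPKM (0.0877 to 0.140) in live cells and was listed at 0 in processed cells. Neither gene reached 1 FPKM in either library, and both were left out of the counts of called genes. Together, the 10 genes made up 0.151% of all FPKM in live cells and 0.147% in processed cells.

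The genes are spread over 7 chromosomes in the GRCh37/hg19 coordinates of the tables. Among the binding proteins, 4 lie in 2 neighbouring couples. On chromosome 2, IGFBP2 (217497551 to 217529159, plus strand) and IGFBP5 (217536828 to 217560248, minus strand) are 7.67 kb apart and face each other with their 3′ ends. On chromosome 7, IGFBP1 (45927956 to 45933267, plus strand) and IGFBP3 (45951951 to 45961473, minus strand) have the same arrangement with 18.7 kb between them. No other gene of the tables lies in either gap. Within the couples the levels were unequal, IGFBP2 being 5.58 times IGFBP5 in live and 5.96 times in processed cells. IGFBP1 was 0.0175 times IGFBP3 in live cells. IGFBP6 (53491220 to 53496129) and IGF1 (102789645 to 102874423) are both on chromosome 12, and IGFBP4 (38599702 to 38613983) is on chromosome 17. IGFBP7 (57896939 to 57976551) is on chromosome 4. INSR (chromosome 19, 7112266 to 7294011) spans 182 kb and IGF1R (chromosome 15, 99192200 to 99507759) spans 316 kb.

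Another gene of the tables overlapped 4 of the 10 loci, and in 1 case, IGFBP7, that gene had at least 1 FPKM. POLR2B, an RNA polymerase II subunit, shares 396 bases with the end of IGFBP7 and had 49.2 FPKM (live) and 36.0 FPKM (processed). Strand use in the quantification is not stated in the sources used here, so that reads in the shared bases cannot be assigned with certainty.

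The regions just before the annotated starts differ among these genes, and they are shown because they are a feature that the choice of genes did not use. Each line holds the 100 bases before a RefSeq start, 5′ to 3′ on the strand of the gene. They were taken from the GRCh38.p14 promoter table and located in GRCh37 by exact match. Capitals mark a TATA-like hexamer or a GC box, each searched on both strands with overlapping matches counted separately. The hexamer was TATAAA or a form of it, namely TATATA as well as TATTAA and also TATTTA. The GC box was GGGCGG, which reads CCGCCC when it lies on the other strand.

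IGFBP2: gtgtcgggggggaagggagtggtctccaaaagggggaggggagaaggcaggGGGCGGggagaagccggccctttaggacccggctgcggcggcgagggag
IGFBP5: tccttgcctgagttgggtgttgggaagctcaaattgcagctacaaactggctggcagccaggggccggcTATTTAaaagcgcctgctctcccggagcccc
IGFBP3: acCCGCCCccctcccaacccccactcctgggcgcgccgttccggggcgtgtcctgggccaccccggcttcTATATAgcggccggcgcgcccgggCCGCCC
IGFBP4: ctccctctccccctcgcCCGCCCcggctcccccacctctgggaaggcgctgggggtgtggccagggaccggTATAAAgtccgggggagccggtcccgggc
INSR: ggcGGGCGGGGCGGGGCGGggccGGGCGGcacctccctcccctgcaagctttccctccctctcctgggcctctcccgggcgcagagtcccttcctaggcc
IGF1R: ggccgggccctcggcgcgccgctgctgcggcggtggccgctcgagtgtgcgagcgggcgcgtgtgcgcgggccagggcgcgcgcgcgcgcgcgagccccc
IGF1: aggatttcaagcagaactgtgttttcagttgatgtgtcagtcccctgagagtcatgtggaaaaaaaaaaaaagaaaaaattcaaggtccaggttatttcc

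On GRCh37 these windows are chr2:217498043-217498142 for IGFBP2, chr2:217560273-217560372 for IGFBP5, chr7:45960872-45960971 for IGFBP3 and chr17:38599602-38599701 for IGFBP4. INSR is at chr19:7294426-7294525, IGF1R at chr15:99191668-99191767 and IGF1 at chr12:102875526-102875625. IGFBP5, IGFBP3, INSR and IGF1 are read from the minus strand. The promoter table held entries for 8 of the 10 genes, without IGFBP1 and IGFBP7. The IGFBP6 window, chr12:53491351-53491450, is not shown. It had a GC content of 72.0% and 1 GC box, and it shares bases with an exon of IGFBP6 itself. A TATA-like hexamer was found for IGFBP5, IGFBP3 and IGFBP4, ending 25, 24 and 23 bases before the start, and for none of the other 5 genes. Over 35116 entries of the table, 11.1% held such a hexamer in the same window and 31.3% held a GC box. A GC box was found for IGFBP3, IGFBP4, IGFBP6, INSR and the IGFBP2 window shown. INSR had 4 GC boxes, 3 of which overlap one another, and IGF1R had none in this window although its GC content was 87.0%. The GC content was 78.0% for INSR, 37.0% for the IGF1 window shown and 60.0% at the median over the table. IGFBP2 has 3 entries in the table and IGF1 has 2, and the window shown for each is 1 of them. The IGFBP3 window and the IGFBP2 window shown, like that of IGFBP6, lie inside the gene coordinates given above. Another IGFBP2 entry lies just before those coordinates and also held 1 GC box. The IGFBP5 window shares bases with an exon of DIRC3-AS1, a non-coding RNA on the opposite strand. A match to these letters is a description of the sequence, and binding was not measured.

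None of the 8 genes that reached 1 FPKM passed a 2-fold difference between live and processed cells when 1 was added to each FPKM, and the low genes IGFBP1 and IGF1 are given apart. For each gene, 1 was added to both FPKM values and the log2 of the processed over the live value was taken, which compresses the differences of low genes. Genes that reached 1 FPKM in either library were counted, as 8 of the 10 genes did. Among the 17326 such genes of the tables, 12.8% were past 2-fold (6.57% higher and 6.19% lower in processed cells), compared with 0 of the 8. With the processed values divided by the median ratio over genes, the share was 13.2%, again with 0 of the 8. That count rests on the added 1 in the case of IGFBP6. Without it and with the processed values so divided, IGFBP6 had a log2 ratio of 1.08 and was the 1 of the 8 genes past 2-fold, compared with 19.5% of the genes above 0 in both libraries. Without the added 1 alone the count was 0 of the 8, compared with 19.3%. With so few genes, a count of 0 or 1 does not set the 8 genes apart from such shares. All 8 had at least 5.36 FPKM in both libraries, while 14635 of the 17326 genes reached 1 FPKM in both. The median log2 ratio was -0.11 over these 8 genes, -0.15 over all 10 and -0.09 over the 17326 genes. The deposited bounds were a far more sensitive criterion. They were separate between the libraries for 7 of the 8 genes and for 71.8% of the 17326 genes, so that separate bounds alone do not set these genes apart.

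By this criterion, IGFBP6 and IGFBP4 were higher in processed cells and IGF1R, IGFBP2, IGFBP3, IGFBP5 and IGFBP7 were lower, while INSR had overlapping bounds. Over the 17326 genes, 28.1% were higher and 43.7% lower with separate bounds. The tables are shifted against each other, with a median processed to live FPKM ratio of 0.932 (log2 -0.10) over 14635 genes with at least 1 FPKM in both libraries. Dividing the processed values by this ratio left 4 of the 8 genes higher (IGFBP6, IGFBP4, INSR and IGFBP2) and 2 lower (IGF1R and IGFBP5). Over all genes the shares then became 35.0% higher and 35.4% lower. Thus IGFBP6, IGFBP4, IGF1R and IGFBP5 kept separate bounds and their direction under both scalings. IGFBP3 and IGFBP7 kept their direction but their bounds then overlapped, INSR then had separate bounds, and IGFBP2 turned.

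**Figure D2:**
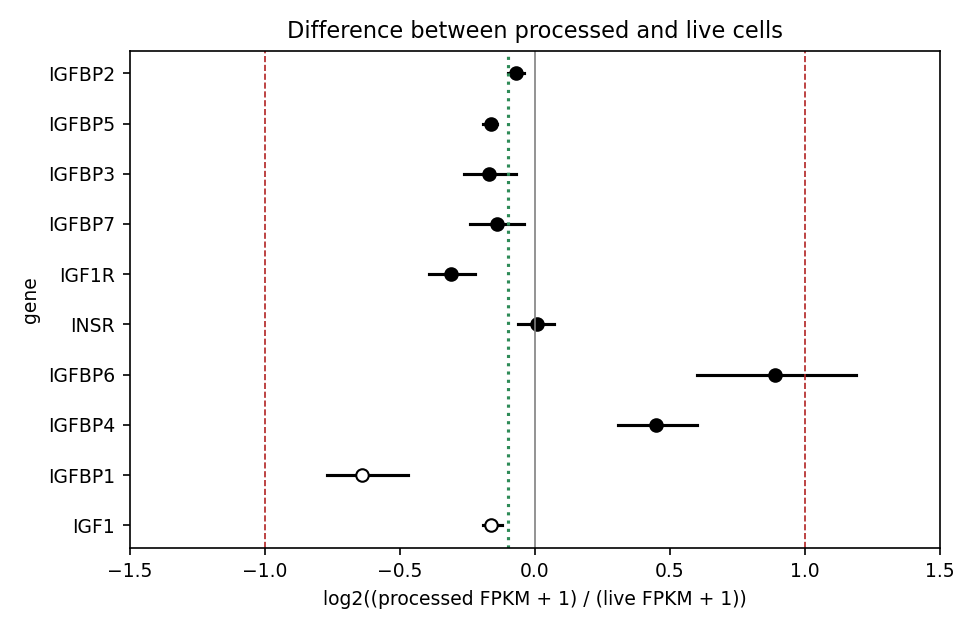
Log2 ratio of processed to live cells, with 1 added to each FPKM, for the 10 genes; points are the ratios, bars join the most extreme ratios the deposited bounds allow, open points are genes under 1 FPKM in both libraries, dashed lines mark 2-fold and the green dotted line marks the log2 of the median ratio over genes, -0.10. IGFBP6 at 0.89 and IGFBP4 at 0.45 lay to the right of 0, IGF1R at -0.31 was the lowest of the filled points and INSR lay at 0.01.

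IGFBP6 showed the largest difference among the genes above 1 FPKM. Its FPKM in processed cells was 1.97 times that in live cells, a log2 ratio of 0.89 (0.60 to 1.19 from the bounds). The gap between the live upper and the processed lower bound was 4.64 FPKM. Of 6441 genes whose mean FPKM was within 2-fold of that of IGFBP6, 8.96% differed at least as far in either direction. Relative to the median ratio, its log2 ratio was 0.98. It has the shortest transcript of the 10 genes, 0.947 kb, and no gene of the tables overlaps it.

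IGFBP4 was 1.44 times as high in processed as in live cells, a log2 ratio of 0.45 (0.31 to 0.60). Of 5962 genes with a similar mean level, 40.4% differed at least as far. IGFBP4 and IGFBP6 were thus the lowest binding proteins above 1 FPKM, and both were higher by the bounds. Markers of mesenchymal cells, which can accompany pancreatic epithelium, went both ways, as 3 of the 9 markers at or above 1 FPKM (33.3%) were higher with separate bounds and 4 (44.4%) were lower, compared with 28.1% and 43.7% of all genes. Among them were DCN, a matrix proteoglycan, with 4.18 and 12.4 FPKM, and PDGFRB, a receptor of mesenchymal cells, with 4.26 and 1.17 FPKM. TWIST1 had 0.574 and 2.93 FPKM, and was thus counted only through the library where it was higher. These 3 markers were past 2-fold, or 33.3% of the 9 compared with 12.8% of all genes. The summed level of the 10 mesenchymal markers was 99.6 FPKM (live) and 96.4 FPKM (processed), with none at 0. The part of mesenchymal cells in the IGFBP6 and IGFBP4 differences was not tested, and in bulk RNA fewer cells of a type and less RNA per cell cannot be told apart.

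IGF1R was 0.793 times as high in processed as in live cells, a log2 ratio of -0.31 (-0.39 to -0.22). Of 6466 genes at a similar level, 49.1% differed at least as far. INSR had a log2 ratio of 0.01 (-0.06 to 0.07). The level of IGF1R relative to INSR was therefore 1.72 (1.60 to 1.84) in live cells and 1.36 (1.30 to 1.42) in processed cells, a comparison within each library that no scaling can change. The receptor mRNAs are the longest of the set, 12.2 kb for IGF1R and 9.46 kb for INSR. A relation between transcript length and the ratio was not tested.

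The abundant binding proteins moved less. IGFBP5 had a log2 ratio of -0.16 (-0.19 to -0.14), IGFBP3 of -0.17 (-0.26 to -0.07), IGFBP7 of -0.14 (-0.24 to -0.04) and IGFBP2 of -0.07 (-0.10 to -0.04). Relative to the median ratio these became -0.06, -0.07, -0.05 and 0.03. Bounds of IGFBP3 and IGFBP7 then overlapped, and IGFBP2 turned from lower to higher in processed cells.

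**Figure D3:**
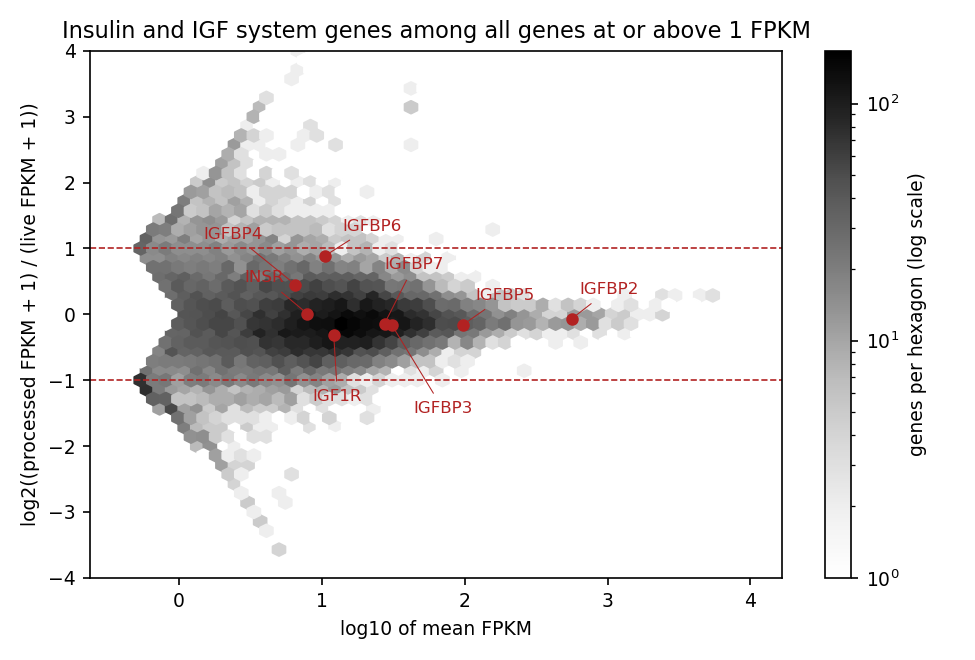
Log2 ratio of processed to live cells, with 1 added to each FPKM, against the log10 of the mean FPKM for 17326 genes (grey hexagons, darker for more genes), with the 8 genes above 1 FPKM in red and dashed lines at 2-fold; 29 genes beyond 4 on the vertical axis are not drawn. The 8 genes lay between the dashed lines, IGFBP6 nearest to the upper one.

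The composition of the binding protein mRNAs was dominated by IGFBP2 in both libraries. Summed over IGFBP1 to IGFBP7, the level was 750 FPKM (live) and 714 FPKM (processed). IGFBP2 held 76.3% of this sum in live cells and 76.4% in processed cells. IGFBP5 held 13.7% and 12.8%, so that both together made up 90.0% and 89.2%. IGFBP3 held 4.39% and 4.08%, and IGFBP7 held 3.86% and 3.66%. The share of IGFBP6 went from 0.949% to 1.96% and that of IGFBP4 from 0.715% to 1.08%. IGFBP1 held 0.0767% and 0.00126%. The largest shift of any share was 1.01 percentage points, for IGFBP6.

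**Figure D4:**
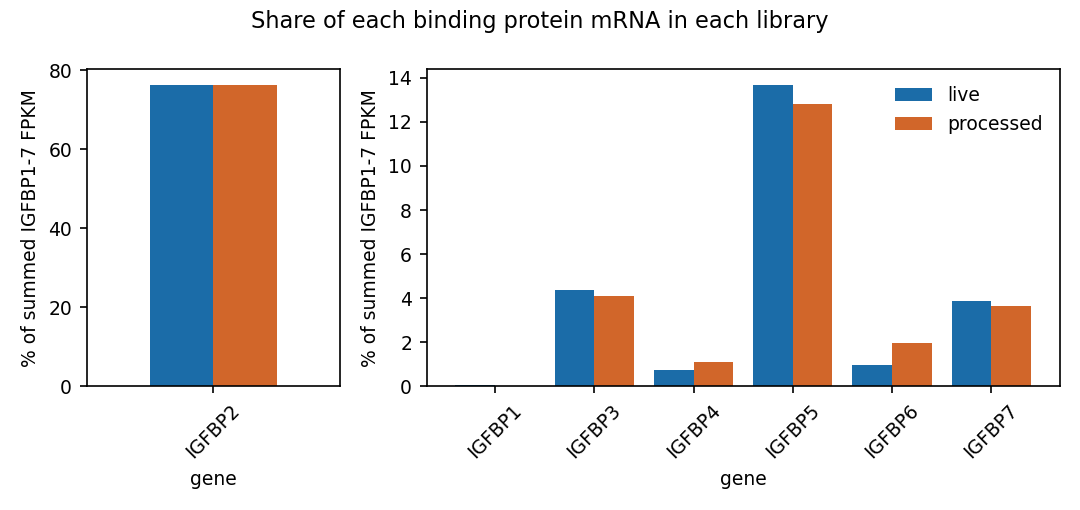
Share of each binding protein in the summed FPKM of IGFBP1 to IGFBP7, in percent, for live (blue) and processed (orange) cells; IGFBP2 is drawn on an axis of its own on the left. IGFBP2 held 76.3% and 76.4%, IGFBP5 13.7% and 12.8%, and the share of IGFBP6 went from 0.949% (live) to 1.96% (processed).

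The low values of IGFBP1 and IGF1 rest on few fragments. From the step that 1 fragment makes in the FPKM of genes with a single transcript, 0.0100 FPKM kb in live and 0.0107 FPKM kb in processed cells, IGFBP1 had about 77 fragments in live cells and 1.1 in processed cells. Rounded to 77 and 1 fragments, the ratio of processed to live was 0.0139, with an exact 95% interval from 3.48e-04 to 0.0799 that covers counting error only. IGF1 had about 81 fragments in live cells, and the same level would have given 75 in the processed library. Of 2665 genes with about 40 to 160 fragments in live cells, 16.5% were listed at 0 in processed cells and 26.1% had a ratio at or below that of IGFBP1. The median ratio of these genes, which were selected on their live value, was 0.558 and the quartiles were 0.0103 and 1.52. An exact 0 can also be a failed estimate, and the deposited status of IGF1 and IGFBP1 was OK in both libraries. Of 10 markers of liver, the tissue that secretes IGFBP1, 6 were higher in processed cells with separate bounds (60.0%, compared with 28.1% of all genes) and 2 were lower (20.0%, compared with 43.7%). They summed to 2625 FPKM (live) and 2871 FPKM (processed), of which SERPINA1 held 1496 and 1579 FPKM. HP, 1 of the 6 higher markers, was listed at 0 before processing and reached 1.05 FPKM (0.749 to 1.35) after it. HP thus passed the minimum of 1 FPKM only through the library where it was higher, which fixed the direction of its call. The part of liver-type cells in the IGFBP1 values was not tested.

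The bounds of several of the 10 genes had nearly the width that fragment numbers give. The bounds lay 2.40% to either side of the FPKM of INSR in live cells, where 2 standard deviations of about 7300 fragments are 2.34%. For IGFBP4 the values were 6.35% and 6.06%, and for IGFBP5 0.810% and 0.803%. IGF1R in live cells had wider bounds, with 4.70% compared with 1.57% for about 16279 fragments. In processed cells its values were 1.74% and 1.82%. IGFBP6 had bounds of 13.6% in live cells compared with 8.52%. The bounds hold no error between repeated preparations.

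Other genes of the pathway, taken from lists of 59 genes without the 10, tended lower in processed cells by the bounds. At or above 1 FPKM were 54 genes, of which 33 were lower with separate bounds (61.1%, compared with 43.7% of all 17326 genes), 10 were higher (18.5%, compared with 28.1%) and 11 overlapped. After division by the median ratio 28 were lower and 14 higher, when 35.4% of all genes were lower and 35.0% higher. The median log2 ratio was -0.25, compared with -0.09 over all 17326 genes. Past 2-fold were 3 genes, all lower, or 5.56% compared with 12.8% of all genes.

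**Figure D5:**
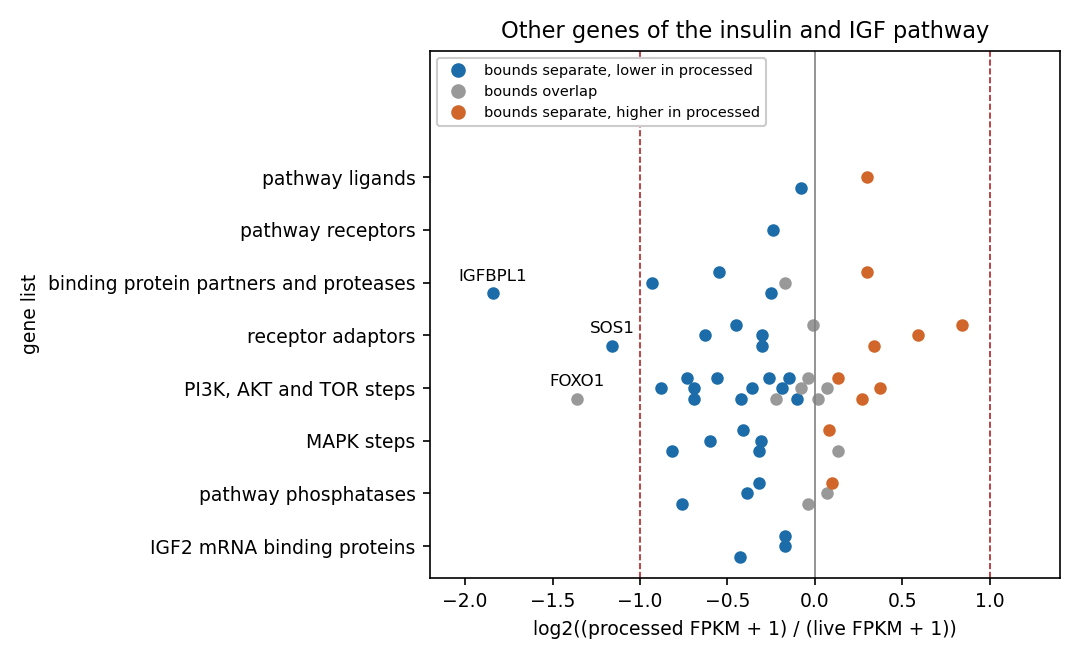
Log2 ratio of processed to live cells, with 1 added to each FPKM, for the 54 other pathway genes at or above 1 FPKM, by gene list; colours give whether the deposited bounds were separate, and dashed lines mark 2-fold. IGFBPL1, SOS1 and FOXO1 lay below the lower line and no gene lay above the upper one.

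Among ligands, IGF2 was the highest, at 1201 FPKM (1198 to 1205) in live cells and 1135 FPKM (1132 to 1139) in processed cells. It was 2.10 times IGFBP2 in live and 2.08 times in processed cells, and 1.60 and 1.59 times the sum of the binding proteins. IGF2 overlaps AC132217.4, which had 598 and 1026 FPKM, and their fragments cannot be told apart with certainty. INS had 98.3 FPKM (95.2 to 101) and 121 FPKM (117 to 125), 12.5 and 15.3 times INSR. INS shares 1431 bases with IGF2, so that the same limit holds for INS and for its ratio to INSR. The readthrough gene INS-IGF2 had 3.55e-06 and 9.17e-07 FPKM. Of the other receptors, IGF2R, which clears IGF2 from the surface, had 28.2 FPKM (27.3 to 29.1) and 23.7 FPKM (22.6 to 24.7). INSRR, an orphan relative of INSR, had 0.0357 and 0.108 FPKM.

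Of 8 genes that act on the binding proteins or on insulin itself, 6 reached 1 FPKM, and 4 of these were lower with separate bounds, a call that 43.7% of all genes had. IGFBPL1, a protein with an IGFBP-like domain, had 14.8 FPKM (14.0 to 15.7) in live cells against 3.42 FPKM (3.02 to 3.82) after processing, a log2 ratio of -1.84. IDE, the insulin-degrading enzyme, had 12.4 FPKM (11.8 to 13.0) against 6.06 FPKM (5.74 to 6.37). The stanniocalcins, which inhibit PAPPA, had 26.4 and 17.8 FPKM for STC2 and 14.6 and 12.1 FPKM for STC1. HTRA1, a protease of binding proteins, was higher, at 5.02 FPKM (4.60 to 5.43) and 6.38 FPKM (5.79 to 6.97). PAPPA, which cuts IGFBP4, stayed below 1 FPKM at 0.485 (0.401 to 0.569) and 0.508 (0.461 to 0.554). PAPPA2 had 0.943 and 0.480 FPKM. IGFALS, which joins IGFBP3 in the serum complex, had 1.20 FPKM (0.933 to 1.47) and 0.956 FPKM (0.352 to 1.56).

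Downstream of the receptors, 42 of 43 listed adaptors, kinases and phosphatases reached 1 FPKM, of which 24 were lower (57.1%) and 8 higher (19.0%) with separate bounds, compared with 43.7% and 28.1% of all genes. Past 2-fold was SOS1, an activator of RAS, with 17.0 FPKM (16.0 to 18.0) and 7.06 FPKM (6.85 to 7.27). FOXO1, a transcription factor that insulin keeps out of the nucleus, had 8.28 and 2.63 FPKM, but its live bounds ran from 0 to 17.2. The gene of each list that was highest in live cells was GRB2 among adaptors, with 35.7 and 22.7 FPKM, and AKT1 among the PI3K, AKT and TOR steps, at 68.4 and 71.9 FPKM with overlapping bounds. In the MAPK list it was MAP2K2, at 59.4 and 63.0 FPKM, and among phosphatases PTPRF, at 106 and 114 FPKM. The 3 IGF2 mRNA binding proteins, which bind RNA and are no relatives of the IGFBPs, were lower with separate bounds. They had 55.3 and 40.8 FPKM (IGF2BP1), 54.3 and 48.2 FPKM (IGF2BP2) and 30.2 and 26.7 FPKM (IGF2BP3).

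The labelled culture type was checked against marker lists. Endocrine markers were present in full, with 10 of 10 at or above 1 FPKM, and so were the 5 pancreatic progenitor markers. The 10 liver and the 5 pluripotent markers also all reached 1 FPKM. Presence at this level therefore does not single out the labelled type. Summed FPKM was 2310 and 2247 for endocrine markers in live and processed cells, although the processed value of CHGA carried a failed status. It was 224 and 216 for progenitor, 608 and 588 for duct and acinar, and 204 and 170 for pluripotent markers. The 7 endothelial markers found, of 8 listed, summed to 4.36 and 6.43 FPKM, of which ERG held 0.0802 and 3.51 FPKM. Single genes also made up much of other sums. CHGA held 1794 and 1741 FPKM of the endocrine sum. KRT19 held 543 and 518 FPKM of the duct and acinar sum, and LIN28A 119 and 88.7 FPKM of the pluripotent sum. In the pluripotent list, 3 of 5 genes were lower with separate bounds (60.0%, compared with 43.7% of all genes). NANOG alone was higher (20.0%, compared with 28.1%), at 1.27 FPKM (1.06 to 1.48) and 7.34 FPKM (4.95 to 9.74). The sums therefore do not measure how many cells of a type were present. The culture thus also held mRNAs of liver and of other cell types, and the cells that expressed each of the 10 genes cannot be read from these libraries.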

How the data were processed

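Per the submitters' processing notes and the methods, STAR 2.2.0c placed the paired 80 nt reads on GRCh37/hg19 with GENCODE as guide, and the authors deposited FPKM values per gene with bounds and a status from Cufflinks/Cuffdiff 2.0.2, 1 library per table. Read counts were not used here, and the level of the bounds is not given in the sources used here. The 55797 genes were joined by Ensembl identifier, FPKM summed to 510713 (live) and 499398 (processed), and all 10 genes had status OK.

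Calculations used scipy 1.17.1, pandas 2.3.3, numpy 2.4.6 and matplotlib 3.10.9 in Python 3.11.15. A pseudocount of 1, a minimum of 1 FPKM in at least 1 library and a 2-fold threshold were applied. Fragment numbers were derived from the step of low FPKM values, the canonical transcript of GENCODE release 44 on GRCh37 and a deduction of 170 nt, and are approximate. The fold counts were tested on simulated data with counting error only, for genes of at least 10 FPKM in live cells. Bound calls were computed there but were not held to a criterion. The genes, lists and comparisons were chosen with earlier results of these data known. Named are the 10 genes, the ligands, receptors, binding protein partners and IGF2 mRNA binding proteins, other pathway genes past 2-fold, the gene highest in live cells of each other list, overlapping genes, and a few markers, chosen after their values were seen. Genes with a similar pattern were not sought, because 2 libraries give only a ratio. With 1 library per condition, no test was possible. Alternatives changed the pseudocount, filter, scaling and bounds.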

Additional observations from a re-analysis of the deposited data

How the results depend on the processing

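No paired analysis was possible because each condition has 1 library, and no library could be left out. The count of 0 genes past 2-fold among the genes counted was also obtained with a pseudocount of 0.1, without a pseudocount, with either rescaling, without a filter and with a minimum of 10 FPKM. Without a filter, IGFBP1 and IGF1 could not have been past 2-fold lower, because 1 was added to live values below 1 FPKM. The settings with a pseudocount of 0.1 or none kept the filter, which leaves both genes out. With a pseudocount of 0.1 and no filter together, a combination chosen after seeing the data, the count was 2 (IGFBP1 at -2.63 and IGF1 at -1.10, both lower), and the count of other pathway genes was 5 in place of 3. With no pseudocount and division by the median ratio together, also chosen after seeing the data, 1 of the 8 genes was past 2-fold, IGFBP6 at 1.08. Division by the median ratio moved the median log2 ratio of the 10 genes from -0.15 to -0.05 and reversed IGFBP2 from -0.07 to 0.03. The summed FPKM of the 10 genes in processed cells was 733 as deposited, 750 after rescaling to the same sum and 786 after division by the median ratio. Without IGFBP7, the share of IGFBP2 was 79.4% in live and 79.3% in processed cells. With bounds widened to 2 times, those of 5 genes stayed separate, and IGFBP3 and IGFBP7 overlapped. Of 40 alternative values for single genes, 30 lay within the range given by the bounds. IGFBP1 and IGF1 rest on about 77 and 81 fragments in live cells, and their processed values on about 1 and 0 where the live level would have given 72 and 75.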

Other observations

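GRB14, an adaptor that inhibits the insulin receptor, had 24.1 FPKM (22.5 to 25.8) before and 43.9 FPKM (41.1 to 46.6) after processing, the highest log2 ratio among the 54 other pathway genes, at 0.84. IRS4, an adaptor of the same receptors, was listed at 0 in processed cells after 0.828 FPKM (0.734 to 0.922) in live cells. It was below 1 FPKM in both libraries and was left out of the counts. Of 3528 genes with 0.3 to 1 FPKM in live cells, 19.2% were listed at 0 in processed cells. These genes were matched on FPKM and not on fragment number. The share therefore does not tell how common such a loss is among genes with as many fragments as IRS4. GRB14 and IRS4 were chosen after their values were seen.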
